A study of Mus musculus with 6 samples.

Results

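Endothelial junction and identity genes were followed in RNA of cells sorted as muscle pericytes. The group holds 10 genes of 53715 in the deposited gene table, taken by their symbols: the adhesion and junction genes Cdh5, Pecam1, Esam and Cldn5, the surface genes Emcn and Plvap, the secreted factors Vwf and Egfl7, and the transcription factors Erg and Sox17. All 10 had enough reads to be tested. The samples came from 14-week-old wild-type (WT) C57BL/6J males. In 3 mice the crural muscles of the lower leg were made to contract electrically 40 times (20 eccentric and 20 concentric contractions) in about 10 minutes, and the gastrocnemius-soleus complexes were taken 3 hours later. The other 3 mice were unstimulated sham controls. From both groups the sort took CD146+CD45-CD31- cells, so cells with the protein of Pecam1 (CD31) on their surface were to be left out.

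Endothelial cells line all vessels and are held together by adherens junctions, built on the cadherin that Cdh5 encodes, and by tight junctions, to which Cldn5 and Esam contribute. Their identity is kept by transcription factors of the ETS and SOX families, among them Erg and Sox17, and their surface and secretory granules carry proteins such as endomucin and von Willebrand factor. Pericytes lie on the outer face of the same capillaries within a shared basement membrane, and in muscle digests the cell types are separated by surface antigens.

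Promoter sequences are shown for 3 of these genes because Erg, a member of the group, encodes a factor that binds the ETS core GGAA. Whether Erg acts on the other genes in these cells was not tested. RefSeq windows of 300 bases (250 before and 50 after a start site, GRCm38.p6) matched 4 of the 10 genes, namely Emcn, Cldn5, Egfl7 and Erg. Each sequence below reads 5′ to 3′ on the strand of the gene, the plus strand in all 3 cases, with GGAA and its reverse complement TTCC in capitals. The Emcn window lies at chr3:137340828-137341127, the Cldn5 window at chr16:18776597-18776896 and the Egfl7 window at chr2:26583615-26583914, which among the 3 Egfl7 windows is the one whose start site held the largest share of the gene's reads (30.1 to 36.0% in stimulated and 34.9 to 42.3% in sham libraries, from transcripts starting within 100 bases of it).
Emcn: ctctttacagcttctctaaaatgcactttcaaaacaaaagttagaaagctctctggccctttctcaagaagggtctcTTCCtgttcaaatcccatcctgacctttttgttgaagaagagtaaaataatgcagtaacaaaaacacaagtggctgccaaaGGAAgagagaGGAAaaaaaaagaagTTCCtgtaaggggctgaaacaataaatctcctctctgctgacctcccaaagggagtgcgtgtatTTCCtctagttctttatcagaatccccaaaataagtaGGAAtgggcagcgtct
Egfl7: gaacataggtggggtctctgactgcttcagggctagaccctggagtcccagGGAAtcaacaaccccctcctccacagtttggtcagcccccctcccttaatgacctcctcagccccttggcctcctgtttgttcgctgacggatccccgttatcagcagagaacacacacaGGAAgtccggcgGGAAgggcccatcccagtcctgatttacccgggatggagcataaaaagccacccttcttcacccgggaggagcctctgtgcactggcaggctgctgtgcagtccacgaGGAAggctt
Cldn5: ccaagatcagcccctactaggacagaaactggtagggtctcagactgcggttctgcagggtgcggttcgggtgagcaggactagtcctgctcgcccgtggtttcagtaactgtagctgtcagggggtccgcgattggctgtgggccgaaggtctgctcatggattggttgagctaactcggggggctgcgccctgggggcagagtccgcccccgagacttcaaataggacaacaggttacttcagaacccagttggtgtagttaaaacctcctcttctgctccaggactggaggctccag
Counted on both strands, with overlaps allowed, GGAA occurred 6 times in the Emcn window, 4 times in the Egfl7 window and 0 times in the Cldn5 window. In the windows not printed, the counts were 5 and 1 for Egfl7 and 1, 4 and 2 for Erg. No Erg window had a start site with more than 16.5% of the gene's reads in stimulated or 3.4% in sham libraries. Of 32851 such windows of all genes, 96.0% held the core at least once, with a median of 3, and 15.7% held 6 or more. The longer CAGGAA occurred 2 times in the Emcn window, once in the Egfl7 window and 0 times in the Cldn5 window, and was in 30.6% of all windows. The pentamer ATTGT, a core read by SOX factors, occurred once in the Emcn window and in neither of the other printed windows. It occurred 2 times in an Erg window and was in 31.0% of all windows. These are letters in the windows only; binding was not measured.

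Each library held 17520338 to 23709220 estimated reads. Sham replicate 2 stood apart. It had the highest level of all 10 genes and the lowest level of lymphocyte markers, summed at 287 CPM (counts relative to library size, scaled by TMM) against 1672 to 2437 CPM in the other 5 libraries. Sham replicate 1 was the lowest sham library for 9 of the 10 genes.

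**Figure D1:**
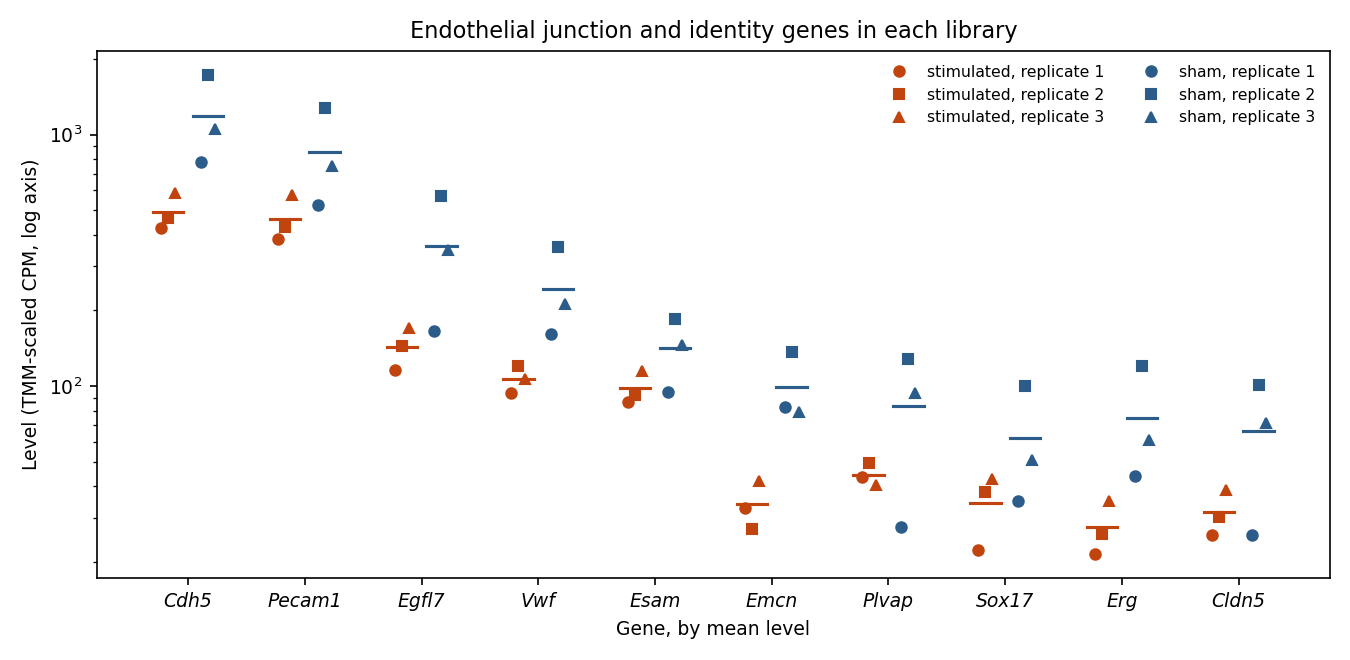
Level of each gene in each library, in TMM-scaled CPM on a log axis, with stimulated libraries left and sham libraries right; horizontal bars are group means (n = 3). Cdh5 lies at 423.5 to 585 CPM in stimulated and 780 to 1730 CPM in sham libraries, and sham replicate 2 is the highest point for every gene.

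All 10 genes were lower on average in stimulated than in sham libraries, with a median log2 fold change (stimulated over sham) of -1.13, against -0.02 over the 26559 genes tested, of which 52% were below 0. Emcn differed most, at 0.341 times its sham level, and Esam least, at 0.691 times. None passed the test: edgeR's quasi-likelihood test called 0 of the 10 at a Benjamini-Hochberg adjusted p of 0.05, as it called 0 (0%) of all genes in either direction, with 1872 genes at an unadjusted p under 0.05. At an unadjusted p under 0.05 there were 7 of the 10, all lower, where 4.41% of all genes were lower at that p. For 4 genes (Cdh5, Emcn, Erg and Vwf) every stimulated library lay below every sham library, as for 5.89% of all genes. None of the 10 lay wholly above sham, as 6.12% of all genes did. DESeq2 called 3 of the 10 lower, Emcn (adjusted p = 0.0013), Cdh5 (adjusted p = 0.0348) and Erg (adjusted p = 0.0428), against 0.576% of all genes, while limma voom called 0. In bulk RNA of this kind, fewer endothelial cells and less RNA per endothelial cell cannot be told apart.

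The values depended on single sham libraries. Without sham replicate 2 the median log2 fold change was -0.72 and all 10 genes remained below 0, with 5 of 10 lower at an unadjusted p under 0.05, where 2.01% of all genes were. The groups did not overlap for 4 of the 10, and for 7.59% of all genes, lower. Without sham replicate 1 the median was -1.44, the groups did not overlap for any of the 10, and 10 of 10 were lower at an unadjusted p under 0.05. In that fit 14.2% of all genes lay wholly below sham and 6.5% were lower at that p. In both cases edgeR called 0 of the 10. DESeq2 called 1 lower, Emcn, without sham replicate 2 (0.143% of all genes), and 7 without sham replicate 1 (1.49% of all genes). It called 0 of the 10 without stimulated replicate 1 (0.123% of all genes lower) or stimulated replicate 2 (0.112%).

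Cdh5 encodes VE-cadherin, the adhesion molecule of endothelial adherens junctions (ENSMUSG00000031871.9, chromosome 8, 104101625 to 104144511, plus strand, GRCm38). Its level was 423.5, 468 and 585 CPM in the stimulated libraries and 780, 1730 and 1049 CPM in the sham libraries. The highest stimulated library stayed below the lowest sham library. The means were 492 ± 83.4 CPM after stimulation and 1186 ± 489 CPM in sham (SD, n = 3 each), a log2 fold change of -1.27 (SE 0.35, edgeR adjusted p = 0.522). Nearly all of its reads (99.3 to 99.7%) fell on a single full-length transcript of 3995 bases.

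Pecam1 encodes CD31, a homophilic adhesion molecule of endothelial contacts that leukocytes and platelets also carry (ENSMUSG00000020717.19, chromosome 11, 106654217 to 106750628, minus strand). It stood at 384, 429 and 577 CPM in stimulated and 524, 1277 and 751 CPM in sham libraries. Stimulated replicate 3 exceeded sham replicate 1, so the groups overlapped. Its log2 fold change was -0.88 (SE 0.37, edgeR adjusted p = 0.694), and -0.46 without sham replicate 2. Ptprc, which encodes the leukocyte antigen CD45 that the sort was also to leave out, stood at 1027, 1035 and 989 CPM in stimulated and 814, 194 and 863 CPM in sham libraries. Mcam, which encodes CD146, the antigen the cells were chosen for, stood at 24.3, 30.8 and 54.05 CPM in stimulated and 39.05, 104.9 and 64 CPM in sham libraries and overlapped between the groups. The part of leukocyte RNA in the level of Pecam1 was not tested.

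Esam, an immunoglobulin-family molecule of endothelial tight junctions that platelets also carry (ENSMUSG00000001946.14, chromosome 9, 37528078 to 37538319, plus strand), differed least. Its level was 86.7, 92.2 and 115 CPM in stimulated and 95.1, 184 and 146 CPM in sham libraries, and the groups overlapped. The log2 fold change was -0.53 (SE 0.29, edgeR adjusted p = 0.8). It was -0.69 (SE 0.35) when reads were summed over transcripts, and -0.30 without sham replicate 2. A 216-base transcript annotated as a target of nonsense-mediated decay took 1.49 to 1.94% of the gene's reads in stimulated and 1.02 to 1.65% in sham libraries. On the TPM scale (reads per transcript length, scaled to a fixed total per library) the same transcript took 60.5 to 67.7% in stimulated and 50.9 to 64.7% in sham libraries, so the per-length level of Esam rests largely on few reads.

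Cldn5, the main claudin of endothelial tight junctions (ENSMUSG00000041378.1, chromosome 16, 18776847 to 18778262, plus strand, a single transcript), stood at 25.7, 30.3 and 38.5 CPM in stimulated libraries. In sham libraries it was 25.7, 101 and 71.7 CPM. Sham replicate 1 was thus level with the lowest stimulated library, and the other sham libraries lay above all stimulated ones. Its log2 fold change was -1.07 (SE 0.44, edgeR adjusted p = 0.68), moving to -1.46 without sham replicate 1 and -0.63 without sham replicate 2.

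Emcn encodes endomucin, a sialomucin of capillary and venous endothelium that hinders leukocyte adhesion (ENSMUSG00000054690.17, chromosome 3, 137341067 to 137432185, plus strand). It had 32.8, 27.15 and 41.8 CPM in stimulated against 82.7, 136 and 79.1 CPM in sham libraries, and the groups lay well apart. The means were 33.9 ± 7.4 and 99.4 ± 32 CPM (SD, n = 3 each) for stimulated and sham libraries, a log2 fold change of -1.55 (SE 0.30, edgeR adjusted p = 0.424, unadjusted p = 0.000607). With libraries left out in turn it lay between -1.73 and -1.25. All 4 of its annotated transcripts start within 100 bases of the site in the window printed for Emcn.

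Plvap, which forms the diaphragms of endothelial caveolae and fenestrae (ENSMUSG00000034845.6, chromosome 8, 71497765 to 71511752, minus strand), had the widest spread in sham. Its level was 43.6, 49.5 and 40.4 CPM in stimulated and 27.6, 128 and 93.6 CPM in sham libraries. The lowest of all 6 values was thus a sham library, and the highest sham value was 4.65 times the lowest, where the stimulated values differed by 1.23 times. The log2 fold change was -0.90 (SE 0.47, edgeR adjusted p = 0.771), and it was -0.45 without sham replicate 2 and -1.32 without sham replicate 1.

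Vwf encodes von Willebrand factor, the clotting protein stored in endothelial Weibel-Palade bodies and in platelets (ENSMUSG00000001930.17, chromosome 6, 125546774 to 125686679, plus strand). It stood at 93.7, 121 and 106 CPM in stimulated and 161, 358 and 212.5 CPM in sham libraries, with no overlap in the gene table. Its log2 fold change was -1.19 (SE 0.33, edgeR adjusted p = 0.521). From summed transcript reads it was -1.03 (SE 0.37), and on that scale sham replicate 1 (108.5 CPM) lay among the stimulated libraries (104.9 to 119.7 CPM).

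Egfl7, a secreted endothelial factor that acts on vessel tube formation (ENSMUSG00000026921.18, chromosome 2, 26580014 to 26593120, plus strand), had 115.5, 144 and 170.2 CPM in stimulated libraries and 165, 572.5 and 349 CPM in sham libraries. Sham replicate 1 lay just below stimulated replicate 3. The log2 fold change was -1.34 (SE 0.43, edgeR adjusted p = 0.589) in the gene table. Without sham replicate 2 it was -0.84, and without sham replicate 1 it was -1.68. With reads summed over its transcripts it was -1.16 (SE 0.37), and the groups did not overlap; on that scale Cdh5, Emcn, Erg and Egfl7 were the 4 genes without overlap, all lower, as were 6.03% of all genes. The gene also hosts the endothelial microRNA miR-126a, whose hairpin of 73 bases lies at chr2:26591357-26591429 inside it. Its mature 3p strand is shown with the seed (bases 2 to 8) in capitals, because the host gene is read here and the microRNA is not.
mmu-miR-126a-3p: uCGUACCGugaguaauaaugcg
The microRNA gene Mir126a is listed at 0 in all 6 libraries, so that its host transcript was the only readout of this locus.

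Erg encodes the ETS factor that maintains endothelial identity and drives Cdh5 (ENSMUSG00000040732.18, chromosome 16, 95359169 to 95586593, minus strand). Its level was 21.5, 25.9 and 34.8 CPM in stimulated and 44, 119.9 and 61.1 CPM in sham libraries, with no overlap. The log2 fold change was -1.45 (SE 0.39, edgeR adjusted p = 0.504), and -0.93 without sham replicate 2. Sox17, a SOX factor of arterial endothelium (ENSMUSG00000025902.13, chromosome 1, 4490931 to 4497354, minus strand), stood at 22.3, 37.8 and 42.7 CPM in stimulated and 35, 100.1 and 51.1 CPM in sham libraries. Its groups overlapped, and its log2 fold change of -0.86 (SE 0.41, edgeR adjusted p = 0.732) was -0.32 without sham replicate 2.

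**Figure D2:**
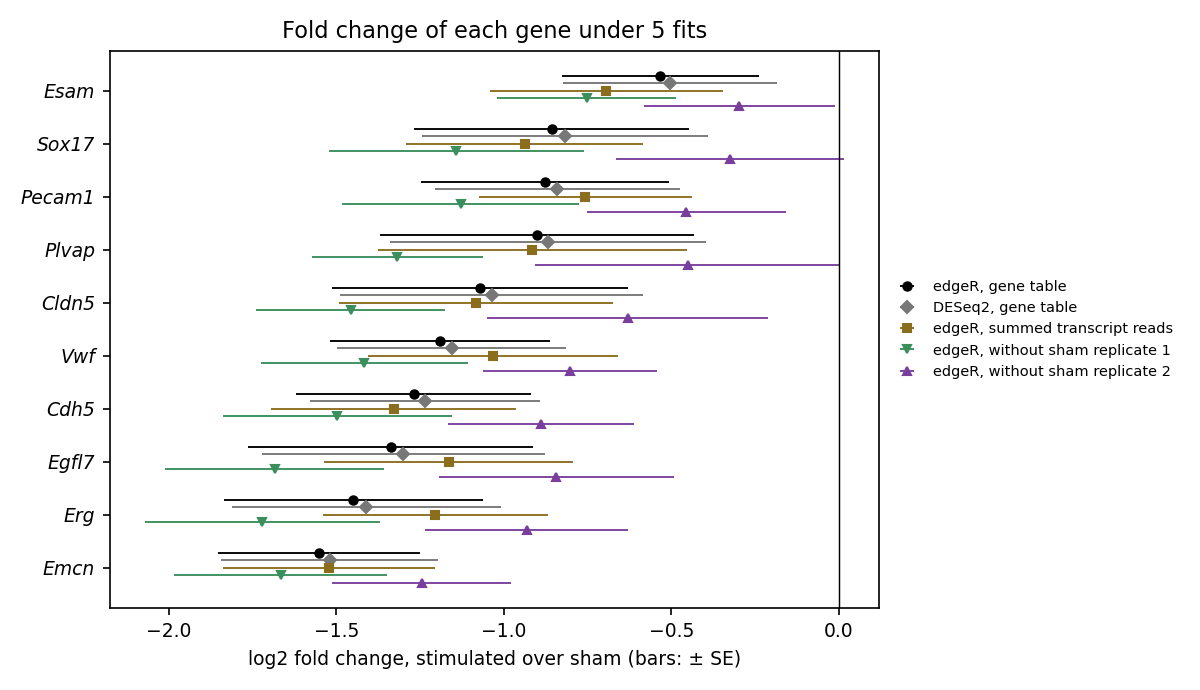
Log2 fold change (stimulated over sham) of each gene with its SE under 5 fits, from Esam at the top (least different) to Emcn at the bottom. All points lie below 0, and leaving out sham replicate 2 moves each of them towards 0, Esam to -0.30 and Emcn to -1.25.

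Whether the genes differed in size of change was examined by ratios. Within a library, the log2 level of a gene minus that of Cdh5 hardly depends on the scaling of the library, and 5 such ratios were compared by an exact permutation test, whose smallest two-sided p with 3 against 3 libraries is 0.1. The ratios of Erg, Vwf, Egfl7 and Sox17 to Cdh5 were not compared. Esam relative to Cdh5 was -2.29, -2.34 and -2.35 in stimulated and -3.03, -3.23 and -2.84 in sham libraries, a difference (stimulated minus sham) of 0.71. Pecam1 relative to Cdh5 was -0.14, -0.12 and -0.02 in stimulated and -0.57, -0.44 and -0.48 in sham libraries, a difference of 0.40. In both ratios every stimulated library lay above every sham library, with the spread within groups smaller than the difference. Each had an exact p of 0.1 (0.25 when adjusted over the 5 ratios), the smallest the design allows, so neither passed. Since Cdh5 itself was lower, 58.8% of all genes lay wholly above sham on this measure, so that a ratio above sham was the common case. From summed transcript reads the differences were 0.63 and 0.55, again without overlap. Emcn, Plvap and Cldn5 relative to Cdh5 overlapped between the groups, with differences of -0.32, 0.56 and 0.33 and exact p of 0.2, 0.3 and 0.5. Without sham replicate 1 these differences were -0.17, 0.16 and 0.01, while those of Esam and Pecam1 stayed between 0.61 and 0.81 and between 0.37 and 0.43 with any library left out. Set instead against the mean log2 CPM of the 10 genes, Esam lay wholly above sham (difference 0.50). Pecam1 then overlapped (0.20, exact p of 0.2). Cdh5, Emcn and Erg lay wholly below sham on that measure (-0.21, -0.53 and -0.35). Esam, Cdh5, Emcn and Erg each had an exact p of 0.1 (0.25 when adjusted over the 10 genes), so none passed. Cldn5, Vwf, Egfl7, Plvap and Sox17 overlapped. The share of all genes on that measure was not computed. Platelet and megakaryocyte markers, of which 9 of 12 were tested and 0 were listed at 0, summed to 30.5 to 51.3 CPM in stimulated and 29.5 to 65.8 CPM in sham libraries. Ptprc, like the ratios of Esam and Pecam1 to Cdh5, was higher in every stimulated library than in every sham library. Within sham, replicate 2 had the lowest Ptprc, the lowest Esam ratio (-3.23) and the highest Pecam1 ratio (-0.44). The part of leukocyte RNA in the ratios was not tested.

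**Figure D3:**
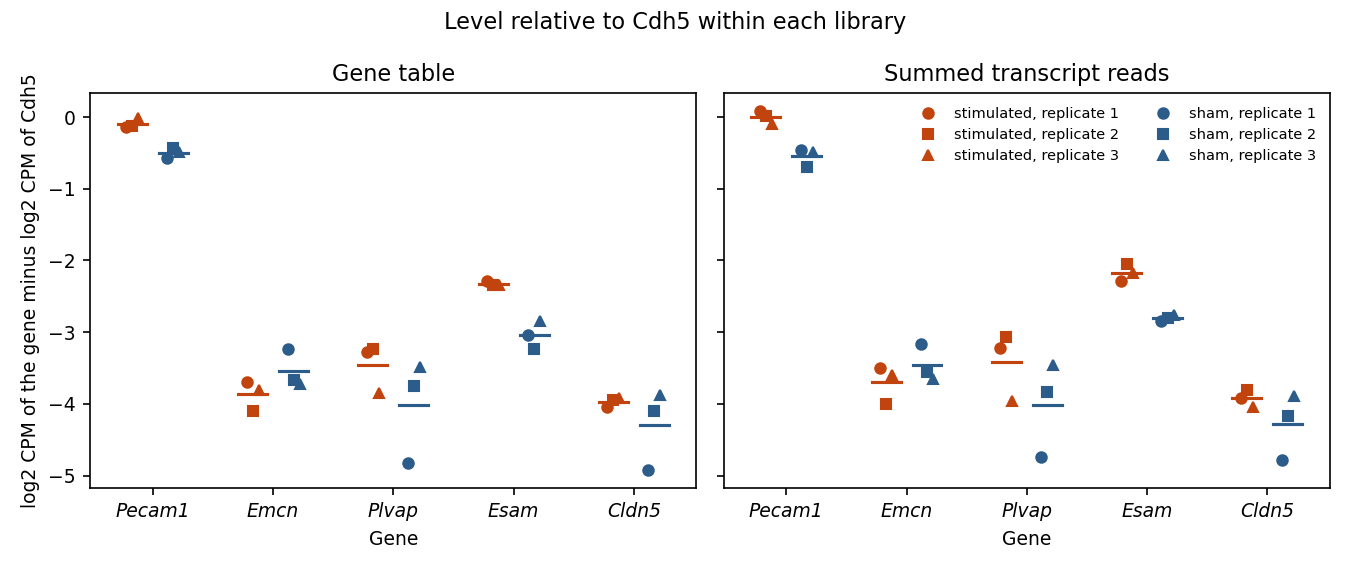
Log2 CPM of 5 genes minus log2 CPM of Cdh5 in the same library, from the gene table (left) and from summed transcript reads (right); bars are group means (n = 3). For Pecam1 and Esam all 3 stimulated libraries lie above all 3 sham libraries on both scales.

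Levels between genes were compared per length, in TPM within each library. Egfl7 was first in 6 of 6 libraries, at 12.8 to 17.7 TPM in stimulated and 24.6 to 97.6 TPM in sham. That place rests on short transcripts: those under 400 bases took 50.3 to 59.7% of its TPM in stimulated and 53.6 to 62.9% in sham libraries, with 15.4 to 16.9% and 15.4 to 19.7% of its reads. With such transcripts left out of all 10 genes, Pecam1 was first in 5 of 6 libraries and Egfl7 in 1. In the full values Pecam1 and Esam followed and exchanged places, Pecam1 being above Esam in 3 of 6 libraries. Cdh5, Emcn and Vwf came next, in that order, in 6 of 6. The place of Esam above Cdh5 and Emcn also rests on short transcripts. With those under 400 bases left out, Esam ranked 3 to 5, Cdh5 3 to 4 and Emcn 4 to 5, while Vwf stayed at 6. In the full values Cldn5, Plvap and Sox17 did not hold a fixed order, and Erg was last in 5 of 6, at 0.355 to 0.54 TPM in stimulated and 0.787 to 3.05 TPM in sham. Of the 12 pericyte markers only Pdgfrb, Cspg4, Mcam and Rgs5 were compared in TPM. Cdh5 had more TPM than each of them in 6 of 6 libraries. Pdgfrb, the platelet-derived growth factor receptor that marks pericytes, was at 0.0726 to 0.237 TPM in stimulated and 0.168 to 0.532 TPM in sham libraries, below all 10 genes in each. Cspg4, the NG2 proteoglycan gene of pericytes, was also below all 10 genes in each library. Rgs5, a signalling regulator rich in pericytes, stood higher, at 1.21 to 2.94 TPM in stimulated and 2.26 to 8.65 TPM in sham libraries, with 4 to 5 of the 10 genes above it.

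The profiles of the 10 genes over the 6 libraries had features in common and parted in sham replicate 1. Stimulated replicate 1 was lowest of all libraries for 7 of them, and stimulated replicate 3 was the highest stimulated library for 8. In sham replicate 1 Cldn5 stood at -0.71 and Emcn at 0.54 on the log2 scale, relative to their means over the libraries, and Plvap was at its lowest there. The likeness of a gene to the median profile of the 10 was measured as the root mean square distance between log2 CPM profiles, each centred on its mean over the 6 libraries. It was 0.15 to 0.40 for the 10 genes themselves, smallest for Pecam1, Egfl7 and Cdh5 and largest for Plvap and Emcn, but the 10 genes set that median themselves. Of 4961 other genes whose log2 CPM averaged 5 or more, 594 were closer to it than Plvap and 601 closer than Emcn. The closest were Arap3 (0.03), Fmo1 (0.07), Dock6 (0.07), Rflnb (0.08) and Cd300lg (0.08). Arap3 stood at 93.5, 109 and 128 CPM in stimulated and 129.6, 353 and 213 CPM in sham libraries. It did not overlap, and 5.89% of all genes likewise lay wholly below sham. As these nearest genes were picked for this profile, their lower stimulated levels follow from the choice.

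**Figure D4:**
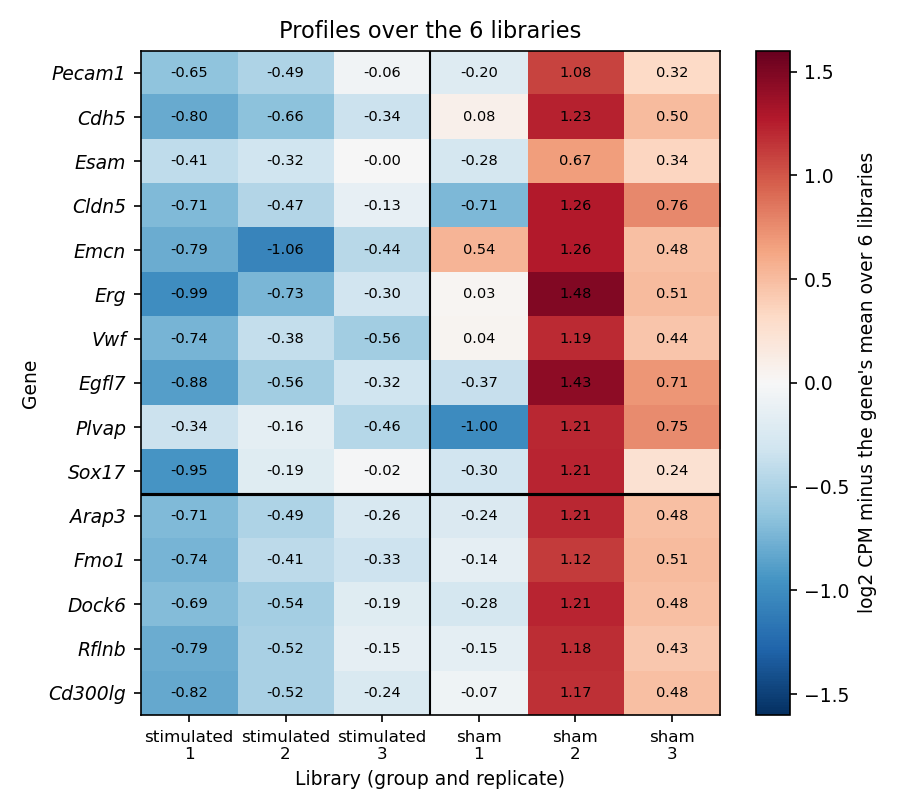
Log2 CPM of each gene minus its mean over the 6 libraries, for the 10 endothelial genes (above the line) and the 5 other genes nearest to their median profile (below it). Sham replicate 2 is highest in every row; Cldn5 (-0.71) is low in sham replicate 1, where Emcn is at 0.54.

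Further junction genes showed the same direction. Of 26 genes for adherens, tight and gap junctions, 23 were lower and 3 higher in stimulated libraries. By edgeR 14 were lower at an unadjusted p under 0.05, where 4.41% of all genes were, and 0 passed at the adjusted p. Their median log2 fold change was -0.98, and -0.54 without sham replicate 2. In that fit 22 were lower, 8 of them at that p, where 2.01% of all genes were. Afdn, which encodes the junction adaptor afadin, averaged 309 ± 19.1 CPM in stimulated and 978 ± 494 CPM in sham libraries (SD, n = 3 each), a log2 fold change of -1.66 (SE 0.38). Tjp1, which encodes the tight junction scaffold ZO-1, had -1.42 (SE 0.41) and the T-cadherin gene Cdh13 -1.24 (SE 0.34). Ocln, Ccm2 and Cgn were the 3 above 0, at 1.16 (SE 0.75), 0.46 (SE 0.30) and 0.27 (SE 0.37). Ocln, for the tight junction protein occludin, was sparse at 0.493 to 3.79 CPM in stimulated and 0.42 to 1.03 CPM in sham libraries.

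Among 30 further endothelial identity genes (receptors, surface proteins and transcription factors) 30 were lower, with a median of -1.02. By edgeR 20 of them were lower at an unadjusted p under 0.05 (4.41% of all genes), with 0 past the adjusted p. Without sham replicate 2 the median was -0.63, with 29 lower and 12 of them at that p (2.01% of all genes). The VEGF receptor Kdr had the largest difference, -2.04 (SE 0.40), and Myct1 stood at -1.61 (SE 0.34) and the surface lectin Clec14a at -1.51 (SE 0.35). For comparison with Plvap, 9 of 9 genes of caveolae were lower, with a median of -1.03. Of these, 6 were lower at an unadjusted p under 0.05 (4.41% of all genes) and 0 passed the adjusted p. Cav1, the main caveolin, was at 173, 208 and 345 CPM in stimulated and 405, 1027 and 530 CPM in sham libraries and did not overlap, whereas Plvap did. The caveola median was -0.77 without sham replicate 2, with 8 of 9 lower. For comparison with Vwf, 11 of 15 genes of Weibel-Palade bodies and haemostasis were lower and 4 higher, with a median of -0.29. At an unadjusted p under 0.05, 2 were lower (4.41% of all genes) and 1 was higher (2.64% of all genes), with 0 past the adjusted p. The balance of 11 lower and 4 higher rested on sham replicate 2, without which 11 of 15 were higher and the median was 0.07. Edn1, which encodes the vasoconstrictor endothelin-1, had -0.86 (SE 0.29), and Rab27a, a GTPase of granule release that leukocytes also use, 0.58 (SE 0.23).

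Markers of other cell types also differed between the libraries. Pericyte markers, 12 of 12 tested, were lower in 11, and summed to 182 to 414 CPM in stimulated and 337 to 707 CPM in sham libraries. Their median log2 fold change was -0.93, and -0.51 without sham replicate 2. Lymphocyte markers, 15 of 15 tested, were higher in 15, at 1830 to 2369 CPM in stimulated and 287 to 2437 CPM in sham libraries. Without sham replicate 2 only 10 of the 15 were higher, and the B cell genes Cd79a, Cd79b, Ighm and Ms4a1 and the lymphocyte gene Cd2 were lower. Neutrophil markers, 11 of 12 tested, were higher in 11, at 203 to 290 CPM in stimulated and 94.5 to 102 CPM in sham libraries, and 11 were higher without sham replicate 2 too. In none of these lists was a marker listed at 0 in all libraries, and 0 members passed the adjusted p by edgeR. The 10 endothelial genes summed to 1249 to 1752 CPM in stimulated and 1940 to 4707 CPM in sham libraries. The part of such shifts in the endothelial values was not tested.

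**Figure D5:**
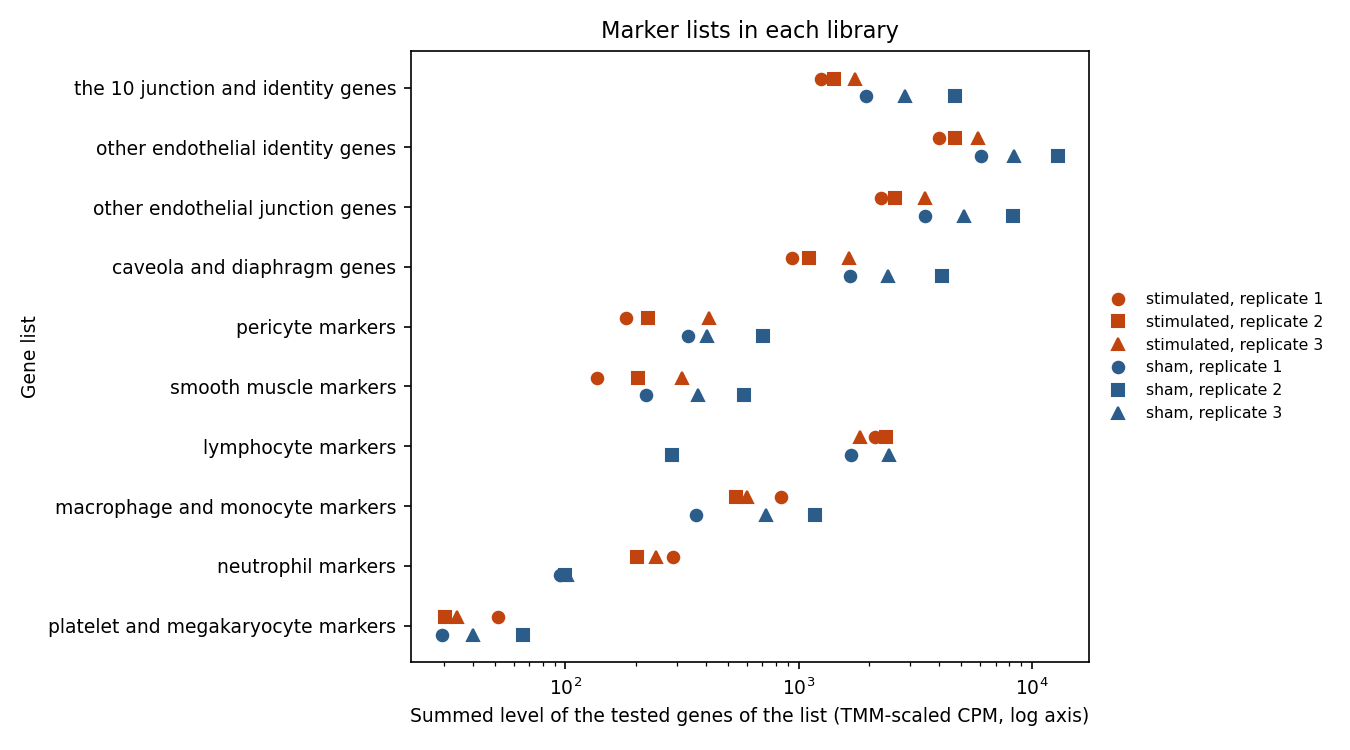
Summed CPM of the tested genes of each list in each library on a log axis, stimulated above sham within a list. The 10 endothelial genes sum to 1249 to 1752 CPM in stimulated and 1940 to 4707 CPM in sham libraries, and sham replicate 2 is lowest for lymphocyte markers (287 CPM).

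The transcript files allowed a look at intron-retaining forms, chosen after the values were seen. The share of a gene's reads on transcripts annotated as retaining an intron could be computed for 6 of the 10 genes (those with such a transcript and at least 100 reads in every library). For Egfl7 it was 42.4, 42.7 and 38.6% in stimulated and 31.3, 36.05 and 35.7% in sham libraries, and for Pecam1 7.84, 7.79 and 8.71% in stimulated and 5.76, 7.31 and 4.66% in sham libraries. In both genes every stimulated library lay above every sham library, and so did 9.44% of the 5973 genes compared, while 2.53% lay wholly below. The differences were 6.90 percentage points for Egfl7 and 2.20 for Pecam1. Emcn, Esam, Vwf and Sox17 overlapped between the groups. Reads shared between isoforms are divided by the quantification model, so that shares of single transcripts carry that model's error as well.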

How the data were processed

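RNA from 6 libraries was read with a stranded total RNA kit for low inputs, per the labels' protocols. Salmon 0.8.2 and Trimmomatic 0.36 are among the tools listed, without their roles, in the submitters' processing notes, as are edgeR, R 3.5.1, bcl2fastq 2.17.1.14 and the mouse build GRCm38. The authors deposited estimated counts of 53715 genes in a single table. Per the file headers, each library also has estimated counts and TPM of 135181 transcripts. In 14096 genes the ratio of gene count to TPM, scaled per library, was constant within 1% in 100% of cases, so the gene table is length-scaled; estimated reads summed over transcripts were used as a check.

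Counts were rounded to whole numbers, filtered with filterByExpr (minimum count 10, total 15) and scaled by TMM. Stimulated and sham libraries (3 each) were compared with edgeR 4.0.16 in R 4.3.3 (robust quasi-likelihood test, Benjamini-Hochberg over 26559 genes, threshold 0.05), on code tested on simulated data. An SE is the log2 fold change over the square root of F. Distances and ratios use log2 CPM with a prior count of 2. Alternatives were DESeq2 1.42.0, limma 3.58.1 voom, RLE scaling, no filter, summed transcript reads, the replicate number as a block and each library left out; DESeq2, the lists and the ratios with libraries left out, and the TPM order without transcripts under 400 bases, were added after the data were seen. DESeq2 gave no adjusted p for 6724 genes. Coordinates are from GENCODE M21 (GRCm38), which matched 99.8% of identifiers.

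The members and lists were chosen with earlier results of these data known. Named were the 10 genes, up to 4 genes per list by unadjusted p, the sort antigens and the 5 nearest profiles. Ocln, Ccm2, Cgn, and the TPM of Pdgfrb, Cspg4 and Rgs5 were added after their values were seen, as were the lymphocyte genes named for turning direction. Replicates differed far beyond sampling noise (chi-square per gene 30.4 to 112), and each is taken as a mouse from the stated group sizes.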

Additional observations from a re-analysis of the deposited data

How the results depend on the processing

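Each of the 10 genes stayed lower in stimulated libraries under all 12 other settings (other tools, scaling, filter, read summing, block and libraries left out). Genes past the adjusted p over the whole table, 0 higher and 0 lower as reported, were 74 higher and 153 lower with DESeq2, 44 and 65 with no filter on low counts, 3 higher with RLE size factors and 1 higher with summed transcript reads. Members past it, 0 as reported, were 3 with DESeq2 and 1 (Emcn) with no filter. With single libraries left out, edgeR called 0 to 1 genes higher, 0 lower and 0 members. The median log2 fold change of the members ran from -1.44 to -0.72. The number of members wholly below sham ran from 4 to 10, where the share of all genes ran from 7.59 to 15.2%. DESeq2 called 0 to 7 members lower in such fits, against 0.112 to 1.49% of all genes. The cause of these shifts was not tested. With the replicate number as a block 0 members passed. The block leaves the CPM as it was, so the 4 members without overlap could not change. For numbers 1, 2 and 3 the deviations from the group means correlated at 0.36, -0.22 and -0.02 between stimulated and sham libraries. Stimulated replicate 2 correlated best with sham replicate 3 (0.33). Deviations within a group sum to 0, which ties these correlations together, so they cannot decide whether the numbers pair the libraries. Replicates of a group differed by more than counting noise (chi-square per gene 30.4 to 112); the effect of depth on the errors was not tested.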

Other observations

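Markers of vessel types were counted by direction. The lists share genes with those above: Gja4 and Gja5 are arterial and junction genes, and Nr2f2 is a venous and an identity gene. Selp (venous) and Mmrn1 (lymphatic) are also among the Weibel-Palade body and haemostasis genes. Of 10 arterial endothelial markers, 10 were lower in stimulated than in sham libraries, with a median log2 fold change of -1.22. By edgeR 6 were lower at an unadjusted p under 0.05 (4.41% of all genes) and 0 passed the adjusted p. The median log2 fold change of these markers was -0.72 without sham replicate 2, and 8 of 10 were lower. Unc5b, a netrin receptor, averaged 16.7 ± 6.13 CPM in stimulated and 58.8 ± 31.4 CPM in sham libraries (SD, n = 3 each), and the Notch ligand Dll4 46.8 ± 16.9 and 116 ± 64.1 CPM. Of 8 venous markers 3 were lower and 5 higher, with a median of 0.24, and 0 at an unadjusted p under 0.05, and without sham replicate 1 they split into 4 and 4. The venous list holds Selplg, which leukocytes also express, at 68.3 ± 16.8 CPM in stimulated and 45.4 ± 16 CPM in sham libraries. Of 7 lymphatic markers 5 were lower and 2 higher; they had a median of -0.29, with 0 at an unadjusted p under 0.05, and without sham replicate 2 the median was 0.07. Whether the arterial and venous lists differ from each other was not tested.

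Other lists gave these medians: smooth muscle -0.98 (10 of 10 lower), macrophage and monocyte -0.26 (9 of 12 lower), platelet and megakaryocyte -0.10 (6 of 9 lower), fibro-adipogenic -0.48 (10 of 10 lower, with Cd34 also on the endothelial list), satellite cell 0.31 (5 of 6 higher), myofibre 0.99 (10 of 10 higher), Schwann cell 0.06 (3 of 6 higher) and erythroid -0.12 (4 of 5 lower). Single libraries carried several of them. Without sham replicate 2 the medians were -0.35 for smooth muscle, -0.23 for fibro-adipogenic markers and 0.20 for macrophage and monocyte markers, of which 11 of 12 were then higher. Without stimulated replicate 3, whose myofibre genes summed to 155 CPM against 46.9 and 49.3 CPM in the other stimulated and 27.6 to 45.3 CPM in sham libraries, the medians were 0.36 for myofibre genes (9 of 10 higher, Pvalb lower), -0.71 for satellite cell, -0.45 for Schwann cell and -1.19 for fibro-adipogenic markers. Without sham replicate 3 the satellite cell median was -0.03. The platelet median was 0.09 without stimulated replicate 2 and 0.22 without sham replicate 1. Leaving out stimulated replicate 1 or 2, or sham replicate 3, gave erythroid medians of 0.12, 0.19 and 0.05. None of their members passed the adjusted p by edgeR.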
